A study of Mus musculus with 14 samples.

Results

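B cells from mice without miR-155 (miR155_KO, genotype miR-155[-/-], 5 libraries) were compared with B cells from mice whose gene for the transcription factor PU.1 has lost its miR-155 target site by mutation of the 3' UTR (PU1_KI, genotype PU.1[155-/155-], 5 libraries), which make up 10 of the 14 libraries of the series. The other 4 libraries came from wild type mice (WT) and are given here as levels only. In every group splenic B cells were isolated by negative selection and cultured for 96 h (4 days) with LPS (5 µg/ml) together with IL-4 (10 ng/ml), and polyadenylated RNA was sequenced. By design PU1_KI alters a single target and keeps the miR-155 gene, whereas miR155_KO lacks the microRNA for every target, so the comparison asks what miR-155 loss does beyond the loss of the PU.1 site. Neither a strain, an age, a sex nor a culture date was given for any mouse in the sources used here. The design text calls the libraries biological replicates.

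Of 22295 rows in the RPKM table (reads scaled to gene length and to library depth), 9578 reached 1 RPKM in at least 4 of the 10 libraries and were tested. They stand for 9561 distinct genes. Of these rows, 9113 passed that filter within each group, 258 through miR155_KO alone and 164 through PU1_KI alone, and a row that passed through a single group was bound to differ to some degree. Of genes named below, besides those marked there, Cebpb, Ptprj, Nr4a1, Tlr4, Itgb7 and Sdc1 passed through miR155_KO alone and Cmpk2, Gbp6, Egln3 and Fosb through PU1_KI alone. Differences are miR155_KO minus PU1_KI on log2(RPKM + 0.5), which understates the change of low genes, with the standard error and the Benjamini-Hochberg adjusted p of limma. Because the sum of RPKM differed between the groups, each test was also run after median-of-ratios scaling, which divides each library by the median ratio of its genes to their average over libraries. In what follows, a gene rose or fell only where its adjusted p was under 0.05 in the same direction both as deposited and after scaling. Any other tested gene is said to give no call, and its difference may pass the threshold in one scaling or change sign with the scaling.

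MicroRNAs guide Argonaute proteins to messenger RNAs that pair with bases 2 to 8 of the microRNA, called the seed, and lower the stability and translation of those messages. miR-155 is induced when B cells are activated and is known for its role in germinal centre and antibody responses. PU.1, listed in the table under its older symbol Sfpi1, is an ETS family factor of myeloid and B cells, and Pax5 is the factor that keeps B cells in their lineage.

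The mature microRNA is shown first, with its seed in capitals, followed by the stretch of the 3' UTR around the best seed match in genes whose levels are described below, with the match in capitals. The microRNA is encoded at chr16:84714143-84714165 on the plus strand (GRCm38.p6, sequence from RefSeq). The 3' UTR stretches are from GENCODE M21 on GRCm38, written 5' to 3' on the strand of the gene.
mmu-miR-155-5p: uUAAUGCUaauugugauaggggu
Sfpi1 (chr2:91115437-91115444, plus strand): accccgccggccatAGCATTAAcccgtc
Jarid2 (chr13:44920093-44920100, plus strand): actgattttgttttAGCATTAAactgtt
Nfe2l2 (chr2:75675806-75675813, minus strand): atgaaactttacaaAGCATTAAagtctc
Tcf7 (chr11:52253005-52253012, minus strand): ccaagaagctcaccAGCATTAAcaacta
Bach1 (chr16:87732188-87732195, plus strand): tctatgaacagtttAGCATTAAgggtta
Zfp652 (chr11:95764419-95764426, plus strand): tgaggttagtccagAGCATTAActatat
Inpp5d (chr1:87719838-87719845, plus strand): agatgtttttaaaaAGCATTAAagaaaa
Socs1 (chr16:10784206-10784213, minus strand): tgccgctgtgccgcAGCATTAAgtgggg
S1pr1 (chr3:115710677-115710683, minus strand): ccccactccccaaaAGCATTActttaa
The Sfpi1 line is the reference sequence, which the PU1_KI allele alters. All of these but S1pr1 hold an 8mer, AGCATTAA, which pairs with the whole seed and has an A opposite base 1. The S1pr1 site is a 7mer-m8, AGCATTA without that A. A 7mer-A1, GCATTAA, has the A but lacks the pair at base 8. Each gene was placed in the best class that its longest annotated 3' UTR holds.

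The 10 libraries separated by genotype along principal component 1, with 77.7% of the variance. Size factors ran from 0.919 to 1.13, and recovered depth from 31.5 to 47.2 M reads in PU1_KI and from 38.7 to 52.5 M in miR155_KO. The library miR155_KO_5 stood apart, at 13.1 on this component, with the other 4 of its group at 18.4 to 21.8, and at -12.8 on component 2. All 7 B cell markers were tested and their summed level was 5290 to 6110 RPKM in PU1_KI and 4990 to 5410 in miR155_KO. No marker of NK cells, macrophages, neutrophils or mast cells passed the level filter. Of 16 T cell markers 4 passed, Lck, Tcf7, Cd2 and Thy1, and the list summed to 50 to 59 RPKM in PU1_KI and 84.4 to 92.3 in miR155_KO, most of it Thy1, at 37.9 ± 3.09 and 70.6 ± 3.85. Of these 4, Thy1 and Tcf7 rose, Cd2 fell and Lck gave no call, at 6.42 RPKM in PU1_KI and 5.33 in miR155_KO on average. In bulk RNA, fewer cells of a type and less RNA per cell cannot be told apart.

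Transcripts with a miR-155 seed site were higher in miR155_KO more often than transcripts without. Of the 308 tested genes with an 8mer, 149 rose (48.38%) and 33 fell (10.71%). Of 548 with a 7mer-m8, 182 rose (33.21%) and 102 fell (18.61%), and of 419 with a 7mer-A1, 124 rose (29.59%) and 71 fell (16.95%). Among the 8079 genes with none of these sites, 1194 rose (14.78%) and 2759 fell (34.15%). Over all 9578 tested rows, 17.7% rose and 31.4% fell, so the share of 8mer genes that rose was well above the background and the share that fell well below it. These shares include genes that passed the level filter through miR155_KO alone, 258 of all 9578 rows. Their number in each site class was not counted. The median difference was 0.14 as deposited and 0.26 after scaling for 8mer genes, against -0.16 and -0.03 for genes with no site. The median 8mer gene thus differed little, and 14.29% of the 8mer genes were higher by 1.5-fold or more as deposited, against 3.50% of genes with no site.

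**Figure D1:**
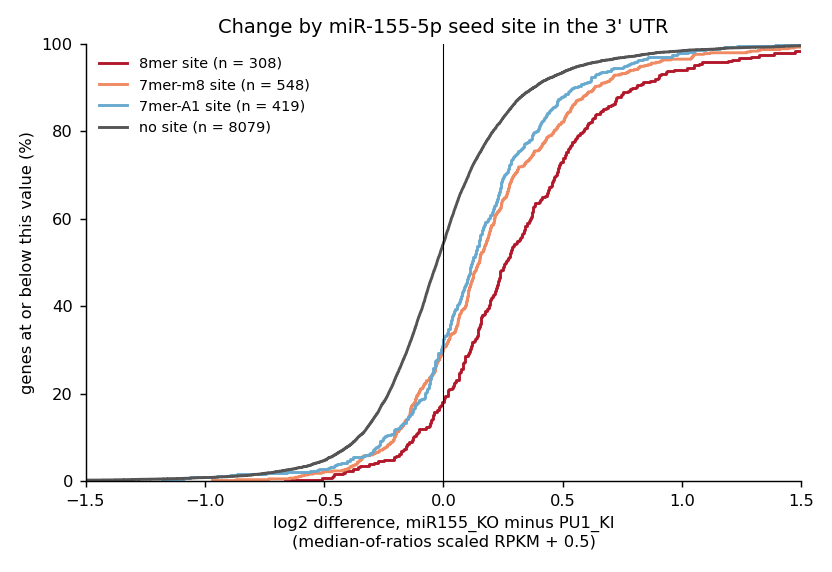
Cumulative share of genes (vertical axis, percent) at or below each log2 difference between miR155_KO and PU1_KI after median-of-ratios scaling (horizontal axis), for genes grouped by the best miR-155-5p seed site in the 3' UTR. The 8mer curve lies farthest to the right, with a median of 0.26, and the curve of genes with no site lies farthest to the left, with a median of -0.03.

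Site classes differ in the length of the 3' UTR, with a median of 2728 bases for 8mer genes and 995 for genes with no site, so the shares were also read within 3 classes of length that hold equal numbers of genes. Among UTRs of up to 677 bases, 16 of 29 8mer genes rose (55.17%), beside 11.93% of genes with no site. Between that length and 1797 bases, 47.37% of 76 8mer genes and 15.73% of genes with no site rose, and above it 47.78% of 203 and 17.38%. With the shortest annotated UTR of each gene in place of the longest, 53.81% of 197 8mer genes rose. Without miR155_KO_5 48.05% of the 308 8mer genes rose and 10.06% fell.

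The 8mer gene with the largest rise was Pmaip1, which encodes NOXA, a BH3-only protein that promotes cell death. It stood at 19.4, 22.3, 21.5, 25.1 and 23.3 RPKM in PU1_KI libraries 1 to 5 and at 76.5, 69.9, 79.9, 74.7 and 73.6 in miR155_KO libraries 1 to 5, with 10.8 ± 0.862 in WT (mean ± SD, n = 4). The groups did not overlap, and the difference was 1.73 ± 0.07 (adjusted p = 6.61e-13). Tcf7, the HMG box factor TCF-1, was at 1.34, 1.46, 1.56, 1.94 and 1.85 RPKM in PU1_KI and at 6.05, 5.54, 6.02, 5.54 and 5.81 in miR155_KO, a difference of 1.57 ± 0.07 (adjusted p = 9.72e-12). Nfe2l2, which encodes NRF2, the activator of antioxidant genes, was at 4.25, 4.27, 4.69, 4.74 and 4.44 in PU1_KI and at 12.6, 11.9, 12.8, 12.2 and 14.2 in miR155_KO. Its difference was 1.41 ± 0.06 (adjusted p = 2.02e-12), and each miR155_KO library lay above every PU1_KI library, as for Tcf7. Jarid2, a subunit of Polycomb repressive complex PRC2 that holds 2 such sites, was at 5.13, 5.58, 5.64, 5.79 and 5.59 in PU1_KI and at 14.8, 14.8, 16.2, 14.9 and 14.99 in miR155_KO. This difference of 1.37 ± 0.05 (adjusted p = 8.29e-13) came with a spread within each group far smaller than the gap between them, and WT stood at 4.44 ± 0.197. The uncharacterised 6430571L13Rik (1.52), Bend4 (1.37), Tnip3, which binds the NF-kB inhibitor A20 (1.28), and Ankrd33b (1.25) complete the 8 largest rises. Bend4, Tnip3 and 6430571L13Rik passed the level filter through miR155_KO alone.

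The miR-155 targets reported in the literature were read as 2 lists. Among transcription and chromatin regulators, 12 of the 21 tested members rose and 3 fell, with a median of 0.28 as deposited and 0.41 after scaling, beside medians of -0.13 and 0.00 over all rows. Bach1, a haem-regulated repressor of antioxidant genes, was at 1.31, 1.25, 1.37, 1.68 and 1.31 RPKM in PU1_KI and at 3.98, 3.76, 3.67, 3.75 and 4.06 in miR155_KO, with no overlap (1.21 ± 0.07, adjusted p = 5.18e-11). Zfp652, a zinc finger repressor, was at 1.71, 1.68, 1.84, 1.87 and 1.83 and at 4.36, 4.23, 4.64, 4.37 and 4.24 (1.09 ± 0.05, adjusted p = 2.16e-11). Among these regulators Trp53inp1, a stress protein induced by p53, rose by 0.89, as did the BMP signal transducer Smad5 (0.92), the C/EBP factor Cebpb (0.82) and the AP-1 member Fosl2 (0.68). Hif1a, the oxygen-regulated subunit of HIF-1, rose by 0.65. The 3 members that fell were Fos (-1.27), Sfpi1 (-0.49) and Bcl6 (-0.47), and Ets1, with an 8mer, gave no call (-0.13 ± 0.07, adjusted p = 0.112). By design miR-155 cannot act through the Sfpi1 site in either group, so this comparison cannot show the response of Sfpi1 as a target. Sfpi1 is also counted among the 8mer genes that fell.

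Among signalling and other proteins, 23 of the 34 tested members rose and 3 fell, with a median of 0.302 as deposited and 0.43 after scaling. S1pr1, the sphingosine-1-phosphate receptor that guides lymphocytes out of lymphoid organs, was at 1.96, 1.79, 2.58, 2.41 and 1.84 RPKM in PU1_KI and at 6.42, 7.01, 7.19, 7.102 and 6.65 in miR155_KO (1.504 ± 0.08, adjusted p = 3.19e-11). Every miR155_KO library stood above every PU1_KI library. The adaptor Sla (1.14), the receptor phosphatase Ptprj (1.01), the syntenin gene Sdcbp (0.96), the clathrin assembly gene Picalm (0.91) and the TAK1 adaptor Tab2 (0.796) also rose. Inpp5d, the phosphatase SHIP1 that opposes PI3K and is among the best known miR-155 targets, was at 41.3, 42.9, 46.97, 47.4 and 46.2 in PU1_KI and at 55.3, 54.4, 56.8, 57.04 and 62.8 in miR155_KO. Its difference was small, 0.35 ± 0.06 (adjusted p = 7.8e-05), with groups that did not overlap and 49.7 ± 1.62 in WT. Socs1, an inhibitor of cytokine receptor signalling that carries an 8mer and is also a reported target, fell. It was at 9.66, 11.5, 11.3, 11.7 and 9.72 in PU1_KI and at 9.02, 9.32, 8.81, 7.43 and 9.06 in miR155_KO (-0.29 ± 0.07, adjusted p = 0.00205). The call was lost with quantile normalization (adjusted p = 0.0539) and after median-of-ratios scaling without miR155_KO_5 (adjusted p = 0.0785). The other members that fell were Myd88 (-0.68), the adaptor of Toll-like receptors, and Ctla4 (-0.68).

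PU.1 itself was lower in miR155_KO than in PU1_KI. Sfpi1 was at 21.1, 22.5, 25.6, 25.96 and 23.3 RPKM in PU1_KI and at 16.7, 17.1, 15.5, 15.8 and 18.3 in miR155_KO, and 11.99 ± 1.54 in WT. The lowest PU1_KI library exceeded the highest miR155_KO library, and the difference was -0.49 ± 0.07 as deposited (adjusted p = 5.63e-06) and -0.36 after scaling (adjusted p = 1.26e-05). Pax5 was at 39.7, 41.1, 49, 45.5 and 43.4 in PU1_KI and at 35.6, 36.1, 35.9, 35.2 and 36.3 in miR155_KO, with 35.8 ± 2.42 in WT. The miR155_KO libraries were close together and below every PU1_KI library, with a difference of -0.28 ± 0.06 as deposited (adjusted p = 0.000596) and -0.14 after scaling (adjusted p = 0.00968). With quantile normalization the Pax5 call was lost, at -0.08 (adjusted p = 0.137). The level of miR-155 and of its host transcript was not analysed here, so the knockout is taken from the labels, and RPKM cannot show the mutated site.

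Of the regulators that decide between the B cell and the plasma cell state, Irf4, which drives plasma cell differentiation, rose by 0.28 (adjusted p = 0.00228), at 45.5, 45.8, 51.8, 58.3 and 45.9 RPKM in PU1_KI and 57.4, 55.6, 61.2, 62.4 and 63.8 in miR155_KO. Here the groups overlapped, since PU1_KI_4 stood above miR155_KO_1 and miR155_KO_2. Irf8, which supports the B cell state, fell by 0.42 on the log2 scale, from 113 ± 9.696 RPKM (SD, n = 5) to 83.95 ± 5.96. The repressors Bach2 (-0.29 ± 0.06) and Bcl6 (-0.47 ± 0.06) fell too, with adjusted p-values of 0.00026 and 3.13e-06. Prdm1, which encodes the plasma cell regulator Blimp-1, gave no call (-0.101 ± 0.12, adjusted p = 0.475), nor did the secretory factor Xbp1 (0.03 ± 0.08, adjusted p = 0.776), which passed only after scaling (0.16, adjusted p = 0.0234), or the J chain gene Igj (0.21 ± 0.17, adjusted p = 0.3). Igj varied widely within groups, which overlapped, at 142, 132, 145, 159 and 81.8 in PU1_KI and 108, 159.7, 118, 169 and 211 in miR155_KO, with a WT mean of 282.

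The 2 groups differed across a large part of the transcriptome, mostly by little. As deposited, 1697 rows were called higher in miR155_KO (17.7%) and 4414 lower (46.1%), with a median difference of -0.13. After scaling, which brought that median to 0.00, 3010 were called higher (31.4%) and 3003 lower (31.4%). Called in both, 1697 rose (17.7%) and 3003 fell (31.4%), and no gene was called in opposite directions. With a change of at least 1.5-fold in both scalings, 413 rose (4.31%) and 290 fell (3.03%). The direction with more changes of that size turned with the scaling, with 413 higher and 533 lower as deposited and 584 higher and 290 lower after scaling. In 1288 of the 9578 tested rows every miR155_KO library lay above every PU1_KI library, and in 2848 every one lay below. Lists are read below against the background of all rows that rose (17.7%) or fell (31.4%). A list with shares near these moved as all rows did.

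**Figure D2:**
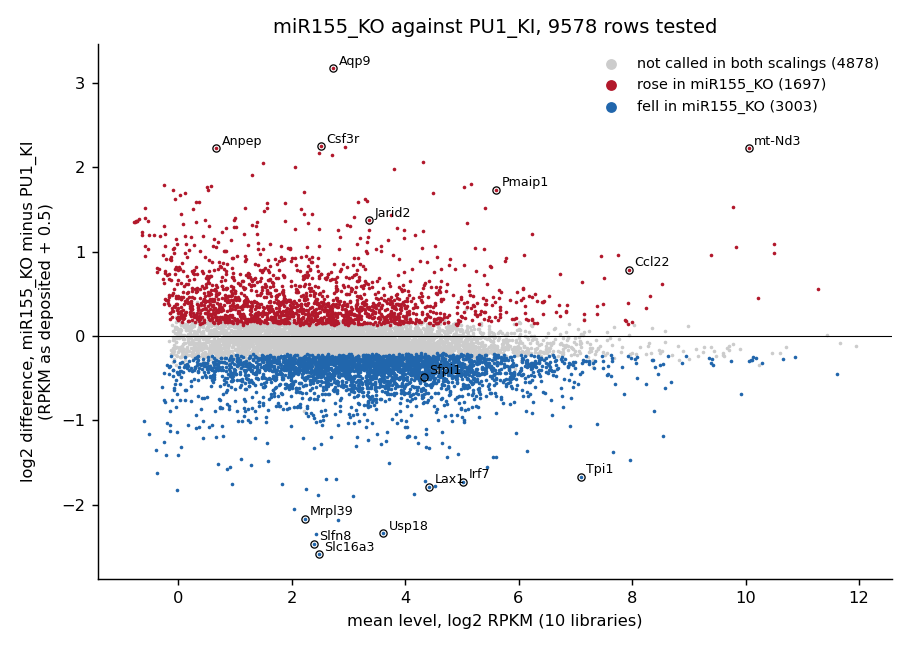
Each point is a tested row, with its mean level over the 10 libraries on the horizontal axis (log2 RPKM) and the log2 difference between miR155_KO and PU1_KI on the vertical axis. Red points rose (1697) and blue points fell (3003) in both scalings, and the named genes include Aqp9 at 3.17 and Slc16a3 at -2.59.

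The largest rise was that of Aqp9, a channel for water and glycerol. It was at 0.948, 0.672, 0.975, 1.098 and 0.943 RPKM in PU1_KI and at 12.9, 11.4, 14.9, 12.3 and 10.4 in miR155_KO, with 0.122 in WT, a difference of 3.17 ± 0.09 (adjusted p = 1.85e-14). Csf3r, the receptor for G-CSF, was at 1.51, 1.75, 1.64, 1.46 and 2.03 in PU1_KI and 9.38, 9.46, 9.67, 9.95 and 10.6 in miR155_KO (2.25 ± 0.07, adjusted p = 4.82e-14). In both genes PU1_KI also lay above WT, where Csf3r stood at 0.777 ± 0.0813. Of 12 neutrophil markers, S100a8, S100a9, Ly6g, Elane and Retnlg were at 0 in all 10 libraries, and the summed level of the 12 was 0.0719 to 0.159 RPKM in PU1_KI and 0.0953 to 0.167 in miR155_KO. Anpep, the aminopeptidase CD13, was at 0.201, 0.276, 0.255, 0.184 and 0.273 in PU1_KI and 3.27, 2.804, 3.07, 3.04 and 2.56 in miR155_KO (2.22 ± 0.07), a rise from near the detection limit. The ATP-gated channel P2rx3 was at 2.51, 2.03, 1.91, 2.41 and 1.59 in PU1_KI and 11.4, 9.55, 9.696, 9.43 and 15.1 in miR155_KO (2.14 ± 0.12), and its WT level of 5.54 ± 0.824 lay between the groups. Irg1, the enzyme that makes itaconate (2.05), the inhibitory receptor gene Lilrb4 (1.996), Bzrap1 (2.17), Cox6a2, a subunit of cytochrome oxidase (2.06), Aldh1l2, a mitochondrial folate enzyme (1.91), and the heavy chain constant gene Ighg2c (1.98) were also among the 12 largest. Ighg2c and Lilrb4 have close relatives in the genome that may share reads, and Aqp9, Anpep, Irg1 and Aldh1l2 passed the filter through miR155_KO alone.

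The largest fall was that of Slc16a3, the lactate exporter MCT4, described with glycolysis below. Slfn8, a Schlafen family gene, was at 8.98, 8.81, 9.06, 8.997 and 10.5 RPKM in PU1_KI and at 1.22, 1.01, 1.44, 1.38 and 1.32 in miR155_KO (-2.46 ± 0.07, adjusted p = 2.36e-14), with 8.28 ± 0.527 in WT. Lax1, an adaptor that dampens antigen receptor signals, was at 34.1, 32.7, 35.2, 33.7 and 32.5 in PU1_KI and at 8.53, 8.78, 9.18, 10.4 and 10.2 in miR155_KO (-1.79 ± 0.06, adjusted p = 1.58e-13). Lax1 was highest in WT, at 54.6 ± 3.81, and for both genes each miR155_KO library lay below every PU1_KI library. The uncharacterised gene 1110032F04Rik (-2.18) and Ak4, a mitochondrial adenylate kinase (-1.83), belonged to the same 12, as did the hypoxia target Ankrd37, the interferon-stimulated genes Usp18, Mx1, Mx2, Rtp4 and Ifitm3, and Mrpl39, all given below. Ak4 passed the filter through PU1_KI alone, and Schlafen genes form a cluster of near relatives.

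**Figure D3:**
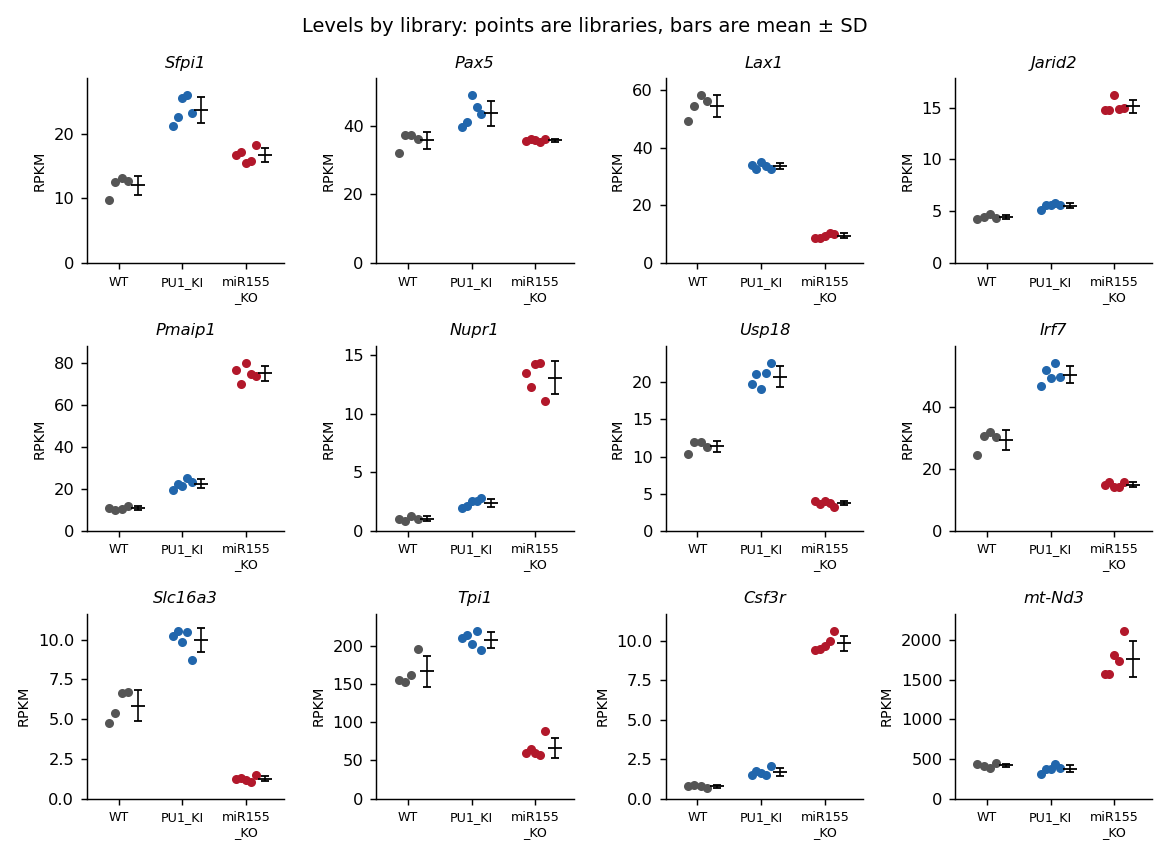
RPKM (vertical axis, from 0) of 12 genes in each library of WT, PU1_KI and miR155_KO, with mean ± SD beside the points. PU1_KI and miR155_KO did not overlap in any of the 12, some of which were picked for that, and Sfpi1 was lowest in WT, at 11.99 on average. Of all 9578 tested rows, 1288 had no overlap with miR155_KO higher and 2848 no overlap with it lower.

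Interferon-stimulated genes, which type I interferon switches on through a complex that holds Stat2 and Irf9, were lower in miR155_KO almost throughout. Of the tested members (46 of 49 listed, 43 of them above the filter in both groups), 40 fell and 1, Xaf1 (0.16, a call that 8 alternatives lost), rose, with a median of -0.84 as deposited and -0.701 after scaling. The background share that fell was 31.4%. Usp18, which removes ISG15 from proteins and limits interferon receptor signalling, was at 19.8, 21.1, 19.1, 21.2 and 22.6 RPKM in PU1_KI and at 3.94, 3.57, 3.96, 3.75 and 3.26 in miR155_KO (-2.34 ± 0.06, adjusted p = 1.85e-14). Irf7, the factor that amplifies interferon production, was at 46.7, 51.9, 49.5, 54.2 and 49.8 in PU1_KI and at 14.7, 15.6, 14.3, 14.05 and 15.7 in miR155_KO (-1.73 ± 0.06, adjusted p = 1.08e-13). The WT level lay between the groups for both, at 11.4 ± 0.773 for Usp18 and 29.3 ± 3.28 for Irf7. Mx1, an antiviral GTPase, was at 6.76, 6.79, 6.47, 6.8 and 8.02 in PU1_KI and at 1.199, 1.34, 1.29, 1.25 and 1.44 in miR155_KO (-2.05 ± 0.06). The related Mx2 (-1.82), Rtp4 (-1.899), the membrane protein gene Ifitm3 (-1.88), which was not on the list, and the RNA sensors of the 2',5'-oligoadenylate synthetase family Oas2 (-1.70) and Oas3 (-1.78) showed falls of like size.

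The signal transducers Stat2 (-0.52) and Irf9 (-0.74) of this response fell by less. Among effectors, Cmpk2 (-1.53), Zbp1 (-1.27), a sensor of nucleic acids, Rsad2 (-1.21), the antiviral enzyme viperin, and Isg15 (-0.74) fell, and the GTPases of the interferon gamma type Ifi47 (-1.33), Irgm1 (-1.18), Igtp (-0.93) and Gbp6 (-0.76) fell with them. The proteasome and transport genes Psmb9 (-0.17) and Tap1 (-0.18) gave no call, while Psmb8 (-0.43) fell. Bst2, which also marks plasmacytoid dendritic cells, fell from 98.6 ± 9.898 to 52.4 ± 6.42 RPKM, and Zbtb46, a factor of conventional dendritic cells, rose (0.69). Of the 4 tested dendritic cell markers 1 rose, 2, Bst2 and Batf3 (-0.75), fell and 1 gave no call. The summed level of all 10 listed, most of it Bst2, was 128 to 159 RPKM in PU1_KI and 81.4 to 97 in miR155_KO. Whether fewer dendritic cells had a part in this was not tested. Near-identical copies among the Mx, Oas and guanylate-binding genes may share reads. Without miR155_KO_5, 40 of the 46 members fell and 0 rose.

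The genes of glycolysis, which turns glucose into pyruvate and lactate, were lower in miR155_KO from uptake to export. Of 21 tested members 19 fell and 1, Eno2 (0.38), rose, with a median of -0.999 as deposited and -0.87 after scaling. Slc16a3, which exports lactate, was at 10.2, 10.6, 9.88, 10.5 and 8.702 RPKM in PU1_KI and at 1.21, 1.297, 1.15, 1.06 and 1.49 in miR155_KO, with 5.86 ± 0.973 in WT (-2.59 ± 0.07, adjusted p = 1.85e-14). Every miR155_KO library was well below every PU1_KI and WT library. Tpi1, triose phosphate isomerase, was at 210.0, 214, 202, 219.7 and 194 in PU1_KI and at 60.1, 64.3, 60.3, 56.6 and 88.3 in miR155_KO (-1.67 ± 0.09, adjusted p = 7.12e-11). The highest miR155_KO value was that of miR155_KO_5, and it was still under every PU1_KI value. Pgk1, phosphoglycerate kinase, was at 110.2, 112, 89.3, 101 and 99.7 in PU1_KI and 37.7, 39.5, 39.4, 36.6 and 44.9 in miR155_KO (-1.36 ± 0.07), and Aldoc, an aldolase, at 29.5, 31.5, 30.1, 28.6 and 29.4 and 11.5, 12.4, 11.99, 12.1 and 10.5 (-1.32 ± 0.06).

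Most other steps fell too. Glucose transporters Slc2a1 (-1.23) and Slc2a3 (-0.75), hexokinases Hk1 (-0.57) and Hk2 (-0.93), the isomerase Gpi1 (-0.69), the phosphofructokinase subunits Pfkl (-1.71) and Pfkp (-0.34), and the aldolase Aldoa (-0.88) fell. So did the mutase Pgam1 (-1.32), the enolase Eno1 (-1.43), the pyruvate kinase listed as Pkm2 (-1.18) and the lactate dehydrogenase Ldha (-1.38). The phosphofructokinase of muscle type, Pfkm, gave no call (-0.01), and Pdk1, a kinase that holds pyruvate back from the mitochondrion, fell as well (-0.999). Many of these enzymes have processed pseudogenes in the genome that may take up reads, and the authors' handling of such reads was not stated.

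**Figure D4:**
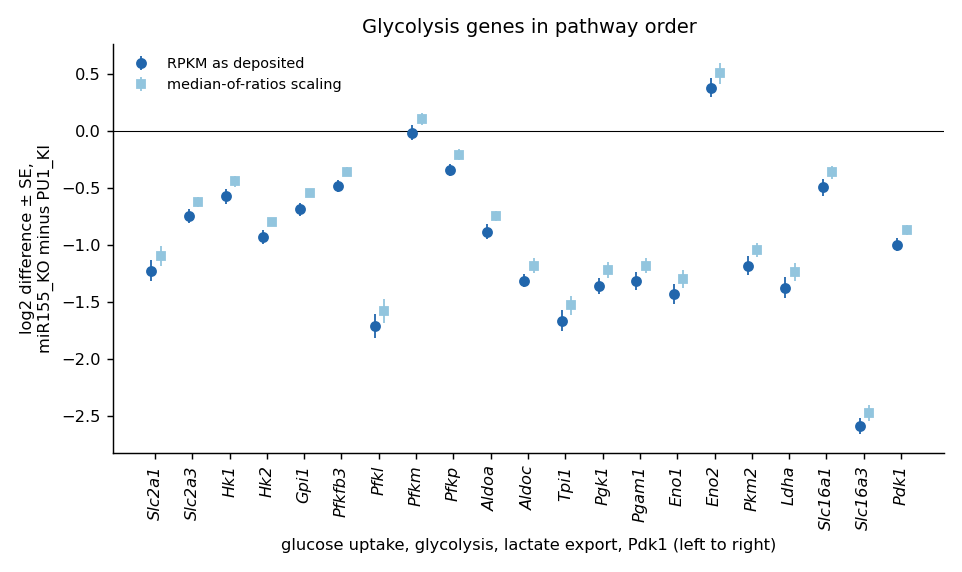
Log2 difference ± SE between miR155_KO and PU1_KI (vertical axis) for 21 genes in the order of the pathway (horizontal axis), as deposited and after median-of-ratios scaling. Slc16a3 is lowest, at -2.59 and -2.48, and Eno2 alone lies clearly above 0, at 0.38 and 0.51.

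Targets of the hypoxia-inducible factor overlapped with these genes, and of 17 tested hypoxia targets 11 fell and 3 rose, with a median of -0.59 as deposited and -0.46 after scaling. Ankrd37, a short ankyrin repeat gene used as a hypoxia marker, was at 10.3, 9.12, 9.41, 10.1 and 7.77 RPKM in PU1_KI and at 1.03, 1.78, 1.21, 1.504 and 1.69 in miR155_KO, with 4.64 ± 0.199 in WT (-2.35 ± 0.10, adjusted p = 2.41e-12). The mitophagy receptors Bnip3 and Bnip3l fell (-1.504 and -1.19), Bnip3 from 19.7 ± 1.17 to 6.65 ± 0.769 RPKM. The prolyl hydroxylases P4ha1 (-1.03), Egln1 (-0.59) and Egln3 (-1.21), which modify collagen or HIF itself, also fell. In the other direction, Hif1a (0.65), Vegfa (0.76) and Adm (1.09) rose against the direction of the list. Slc2a1 and Pdk1 stand on both lists.

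The promoters of Slc16a3 and Ankrd37, from the largest falls, are shown as examples that hold the motif. They run from 250 bases before to 50 bases after the start site (RefSeq, GRCm38.p6). Capitals mark ACGTGC or its reverse complement, a string that holds the shorter core bound by HIF. A core that lacks the final C of this string, as in acgtga of the Ankrd37 promoter, is not marked.
Slc16a3 (chr11:120948817-120949116, plus strand): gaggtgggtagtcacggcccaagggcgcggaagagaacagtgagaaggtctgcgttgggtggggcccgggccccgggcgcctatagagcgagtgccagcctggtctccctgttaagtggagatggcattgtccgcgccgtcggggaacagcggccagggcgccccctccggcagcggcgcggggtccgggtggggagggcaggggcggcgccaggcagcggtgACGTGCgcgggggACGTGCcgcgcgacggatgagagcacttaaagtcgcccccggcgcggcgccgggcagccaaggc
Ankrd37 (chr8:45999801-46000100, minus strand): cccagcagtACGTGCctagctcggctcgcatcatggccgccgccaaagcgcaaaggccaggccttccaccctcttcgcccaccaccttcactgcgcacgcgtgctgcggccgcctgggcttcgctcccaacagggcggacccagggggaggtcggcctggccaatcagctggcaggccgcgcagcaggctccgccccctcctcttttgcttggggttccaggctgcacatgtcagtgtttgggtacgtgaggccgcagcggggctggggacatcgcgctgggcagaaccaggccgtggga
The promoter of Tpi1, searched in the same way, held 0 matches. Promoters were at hand for 6941 of 9561 tested genes (72.6%), of which 9.85% held the string on either strand. That coverage is under the 80% set for such a check, so a comparison with all tested genes is void. The string was found in 8 of 15 promoters of hypoxia targets and in 7 of 19 of glycolysis genes, lists that share members, and these counts are not read against that share. It can overlap the E-box CACGTG. A match is a description of the letters and not evidence that the factor binds there. For the interferon-stimulated genes 73.9% had a promoter, and for the stress response list below 79.5%, so no count over either list is given.

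Genes of the integrated stress response, in which the factor Atf4 raises amino acid synthesis, uptake and tRNA charging, were mostly higher in miR155_KO. 39 of 42 listed members were tested, of which 31 rose and 3 fell, with a median of 0.42 as deposited and 0.56 after scaling, against a background of 17.7% that rose. Nupr1, a nuclear stress protein, was at 1.93, 2.15, 2.53, 2.56 and 2.76 RPKM in PU1_KI and at 13.5, 12.3, 14.2, 14.3 and 11.1 in miR155_KO (2.24 ± 0.08, adjusted p = 5.49e-13). Trib3, a pseudokinase induced by Atf4 and Ddit3, was at 4.51, 3.87, 5.01, 5.45 and 3.94 in PU1_KI and at 15.8, 15.1, 16.2, 13.4 and 14.5 in miR155_KO (1.62 ± 0.08, adjusted p = 2.02e-11). Atf5, a factor related to Atf4, was at 20.5, 20.4, 22.7, 27.4 and 18.8 in PU1_KI and at 69.1, 71.3, 62.5, 55.7 and 57.7 in miR155_KO (1.51 ± 0.09, adjusted p = 2.02e-10). None of the 3 genes showed overlap between the groups, as was the case for 1288 of all 9578 rows in this direction. All 3 were lower in WT than in PU1_KI on average, at 1.04, 2.68 and 15.7.

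Atf4 itself rose by only 0.29, its partner Cebpg by 0.42, and Ddit3, the factor CHOP, by 1.25. Among enzymes, asparagine synthetase Asns (1.04), the serine pathway genes Phgdh (0.45), Psat1 (0.40) and Psph (0.796), the proline pathway gene Pycr1 (0.68), the mitochondrial folate enzyme Mthfd2 (0.61) and Chac1 (1.03), which degrades glutathione, rose. So did the amino acid transporters Slc7a3 (1.002), Slc38a2 (0.77) and Slc7a5 (0.37), and the tRNA synthetases Eprs (0.599), Cars (0.58) and Aars (0.46). Sesn2, a leucine sensor, rose from 16.02 ± 1.67 to 24.97 ± 2.39 RPKM. The 3 members that fell were Ppp1r15a, which encodes GADD34 and ends the response by restoring eIF2 alpha activity, Atf3 (-0.496) and the glutamine transporter Slc1a5 (-0.31). Ppp1r15a was at 31.02, 29.5, 30.03, 26.9 and 26.3 in PU1_KI and at 13.1, 13.6, 12.4, 12.5 and 10.98 in miR155_KO (-1.17 ± 0.07, adjusted p = 8.91e-11). Atf3 is also on the list of immediate early genes, and Cebpb and Slc38a2 hold an 8mer.

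The promoter of Trib3 is shown as an example that holds the motif, with capitals at TGATGNAA or its reverse complement, the element that Atf4 binds with C/EBP factors. The match lies 14 bases after the start site, and it is a description of the letters and not evidence that Atf4 binds there. Of the other genes of the list that were looked at singly, the promoters of Nupr1, Asns and Chac1 held 1 match each and both promoters of Atf5 held 0.
Trib3 (chr2:152344011-152344310, minus strand): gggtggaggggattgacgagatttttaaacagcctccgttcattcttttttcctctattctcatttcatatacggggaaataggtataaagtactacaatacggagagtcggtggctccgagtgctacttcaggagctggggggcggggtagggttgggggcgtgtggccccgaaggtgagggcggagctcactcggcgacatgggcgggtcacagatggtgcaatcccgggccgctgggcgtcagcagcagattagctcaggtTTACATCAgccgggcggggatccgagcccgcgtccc

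The unfolded protein response, which shares the sensor arm that leads to Atf4, moved little. 5 of the 37 tested members rose and 6 fell, with a median of -0.09 as deposited and 0.05 after scaling. The sensor Ern1 (IRE1) rose by 0.75, from 2.14 ± 0.181 to 3.94 ± 0.0826 RPKM, and the chaperone Hsp90b1 (0.39) rose as well. The oxidase Ero1l (-0.52), Derl3 (-0.46) and Selk (-0.42) fell, while the main chaperone Hspa5 gave no call (-0.14).

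Ribosome production and sterol synthesis fell nearly as whole lists. Of 39 tested ribosome biogenesis genes 36 fell and 0 rose, with a median of -0.505 as deposited and -0.38 after scaling. Nop56, a core protein of the snoRNPs that methylate ribosomal RNA, was at 42.2, 42.8, 47.1, 51.8 and 49.9 RPKM in PU1_KI and at 24.8, 25.7, 26.5, 26.2 and 35.5 in miR155_KO (-0.75 ± 0.09, adjusted p = 1.07e-06). Subunits of RNA polymerase I, Polr1b (-0.74) and Polr1c (-0.65), the processing factors Bop1 (-0.76), Tsr1 (-0.63) and Wdr43 (-0.52) and fibrillarin, Fbl (-0.56), fell too. Nop56 in miR155_KO_5 was nearer to PU1_KI than in the other 4 libraries of its group. Nucleolin, Ncl, gave no call (-0.20), nor did nucleophosmin, Npm1 (0.01).

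Of 32 tested genes of cholesterol and fatty acid synthesis 28 fell and 0 rose, with a median of -0.46 as deposited and -0.33 after scaling. Insig1, which retains the SREBP activators in the ER and is their target, was at 53.6, 55.99, 58.2, 58.8 and 53.1 RPKM in PU1_KI and at 32.1, 35.3, 33.99, 34.2 and 38.8 in miR155_KO (-0.68 ± 0.06, adjusted p = 3.43e-08). The SREBP genes Srebf1 (-0.51) and Srebf2 (-0.47) fell, as did lanosterol synthase Lss (-0.798), the cholesterol transfer gene Stard4 (-0.78) and the fatty acid enzymes Elovl6 (-0.96) and Fasn (-0.73). WT levels of Insig1 and Lss were close to those of PU1_KI, with Insig1 at 55.3 ± 2.96 and Lss at 22.6 ± 0.895 RPKM in WT beside 55.95 ± 2.59 and 25.4 ± 1.33 in PU1_KI.

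Cell cycle genes were lower as well, by less. For DNA replication, 3 of the 38 tested members rose and 26 fell, with a median of -0.41 as deposited and -0.29 after scaling. Mcm3, a subunit of the replicative helicase, was at 72.1, 72.3, 77.3, 85.6 and 74.5 RPKM in PU1_KI and at 41.7, 42.9, 40.8, 42.8 and 53.1 in miR155_KO (-0.78 ± 0.07, adjusted p = 6.95e-08), and the subunits Mcm7 (-0.703), Mcm5 (-0.62) and Mcm4 (-0.598) fell likewise, as did the helicase activator Cdc45 (-0.595) and the chromatin assembly gene Chaf1b (-0.68). Mcm2 (0.09, and 0.23 after scaling with adjusted p = 0.0129) gave no call, and E2f2 (0.39), whose UTR holds an 8mer, and Cdt1 (0.55) rose. Of 40 mitosis genes 22 fell and 1, Anln (0.28), rose, with a median of -0.25 as deposited and -0.12 after scaling. The kinases Cdk1 (-0.55), Aurka (-0.43) and Plk1 (-0.45), the phosphatase Cdc25b (-0.55) and the centromeric histone Cenpa (-0.52) fell, whereas Mki67 (-0.08) and Top2a (-0.05) gave no call.

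Of 21 genes of the Myc network, cyclins and CDK inhibitors 7 rose and 7 fell, beside 17.7% and 31.4% of all rows. Myc, the driver of growth genes, was at 29.3, 29.7, 34.4, 34.6 and 28.7 RPKM in PU1_KI and at 18.05, 18.6, 18.3, 15.6 and 21.8 in miR155_KO (-0.75 ± 0.08, adjusted p = 3.52e-07), and its partner Max (-0.58) fell. Cdkn1a, which encodes p21, an inhibitor of cyclin-dependent kinases, was at 14.7, 17.2, 16.3, 17.9 and 14.4 in PU1_KI and at 31.5, 31.4, 30.2, 27.3 and 35.3 in miR155_KO (0.93 ± 0.07, adjusted p = 7.81e-09), and the inhibitor genes Cdkn2a (0.82) and Cdkn2b (0.97) rose. Cdkn1b, the gene of p27, gave no call (-0.16). For p53 targets and the BCL2 family, 13 of the 30 tested members rose and 6 fell, beside the same shares of all rows. The rises included Pmaip1, Cdkn1a, Trp53inp1 and Sesn2, and the falls Bak1 (-0.48) and Mcl1 (-0.33), while the p53 targets Mdm2 (0.00, and 0.13 after scaling with adjusted p = 0.0061) and Bax (-0.16) gave no call.

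Immediate early genes, switched on within minutes of receptor signals, were lower. 2 of the 26 tested members rose and 15 fell, with a median of -0.41 as deposited and -0.27 after scaling. Egr1 was at 41.4, 38.7, 40.2, 33.6 and 30.6 RPKM in PU1_KI and at 17.8, 16.1, 19.8, 21.5 and 19.99 in miR155_KO (-0.93 ± 0.09, adjusted p = 7.12e-08), and Fosb (-1.46), Fos (-1.27), Junb (-1.14), Dusp6 (-0.86) and Mafk (-0.84) fell too. PU1_KI_1 stood apart in Fosb, at 7.09 RPKM beside 2.38 to 2.74 in the rest of its group, and in Fos, at 46.3 beside 18.9 to 24.9. The 2 members of the list that rose were Fosl2 (0.68) and Nr4a1 (0.35). Dusp6 passed the filter through PU1_KI alone, and Fosl2 through miR155_KO alone.

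Of the 49 tested members of the LPS response 16 rose and 15 fell, beside 17.7% and 31.4% of all rows. The share that fell was thus near the background, and the share that rose was above it. Tnf was at 4.41, 5.001, 4.84, 4.47 and 4.28 RPKM in PU1_KI and at 1.12, 1.08, 1.13, 1.31 and 2.22 in miR155_KO (-1.48 ± 0.11, adjusted p = 5.92e-09), with miR155_KO_5 the highest of its group and below every PU1_KI library. Il6, by contrast, was at 5.88, 7.48, 6.31, 8.77 and 8.001 in PU1_KI and at 13.8, 14.3, 18.4, 16.2 and 13.8 in miR155_KO (1.02 ± 0.10, adjusted p = 9.42e-08). Il10 fell (-0.83), and the receptors of nucleic acids Tlr7 (-0.399) and Tlr9 (-0.42), the adaptors Myd88 (-0.68) and Wdfy1 (-0.70) and the kinase Irak1 (-0.55) fell, while Tlr4 (0.25), the receptor of LPS, rose slightly. Of the NF-kB genes, Nfkbia (0.52), Relb (0.24) and Nfkb1 (0.19) rose and Rela (-0.05) and Rel (0.03, and 0.17 after scaling with adjusted p = 0.0181) gave no call.

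Of 28 genes of the IL-4 response 9 rose and 8 fell, beside 17.7% and 31.4% of all rows. The share that fell was thus near the background. Ccl22, a chemokine that attracts CCR4-bearing T cells, was at 163, 169, 162, 199.9 and 209 RPKM in PU1_KI and at 301, 264, 301, 273 and 429 in miR155_KO (0.78 ± 0.11, adjusted p = 1e-05), both far above its WT level of 36.1 ± 5.92. The tetraspanin gene Tspan33 was at 4.99, 4.97, 4.33, 5.6 and 6.22 in PU1_KI and at 9.35, 7.86, 9.203, 9.001 and 8.45 in miR155_KO (0.703 ± 0.08), with 0.873 ± 0.0824 in WT. Cish, a feedback inhibitor of STAT5, rose by 0.48, and Stat6, the transducer of IL-4, fell (-0.33).

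Among chemokines and the receptors that place B cells in tissue, 7 of 17 tested members rose and 4 fell, beside 17.7% and 31.4% of all rows. Ccr6 was at 5.098, 5.66, 5.45, 5.91 and 5.54 RPKM in PU1_KI and at 2.01, 2.43, 2.504, 2.504 and 2.44 in miR155_KO (-1.07 ± 0.06, adjusted p = 1.62e-10). Cxcr4, the receptor for CXCL12, was at 14.2, 13.7, 14.4, 15.7 and 15.1 in PU1_KI and at 25.9, 26.1, 27.5, 26.98 and 29.2 in miR155_KO (0.87 ± 0.06, adjusted p = 5.08e-10), and Ccr7 (0.83) and Gpr183 (0.36) rose. The chemokine gene Ccl5 was at 40.4, 45.6, 43.5, 49.3 and 48.2 in PU1_KI and at 109.6, 108, 106, 82.8 and 123 in miR155_KO (1.205 ± 0.09), and miR155_KO_4 was the lowest of its group. The follicle receptor Cxcr5 (0.03, and 0.17 after scaling with adjusted p = 0.0291) gave no call.

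Of 16 cytokine genes 5 rose and 8 fell, beside 17.7% and 31.4% of all rows. Csf1, the macrophage growth factor, fell from 9.19 ± 0.244 to 3.74 ± 0.286 RPKM (-1.19 ± 0.06, adjusted p = 1.1e-11), and the lymphotoxin genes Lta (-0.87) and Ltb (-0.63) and Tgfb1 (-0.65) fell. The TNF family ligands Tnfsf4 (1.44), or OX40L, Tnfsf8 (1.29), or CD30L, and Tnfsf9 (0.76), or 4-1BBL, rose. Tnfsf4 was at 0.271, 0.338, 0.295, 0.305 and 0.366 in PU1_KI and at 1.56, 1.71, 1.49, 1.42 and 2.56 in miR155_KO, so it passed the filter through miR155_KO alone, as did Tnfsf8.

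Of 40 genes of costimulation and antigen presentation 9 rose and 17 fell, beside 17.7% and 31.4% of all rows. Icosl, the ligand of ICOS on T cells, was at 0.233, 0.402, 0.313, 0.313 and 0.328 RPKM in PU1_KI and at 1.62, 1.25, 1.46, 1.31 and 1.3 in miR155_KO (1.21 ± 0.08, adjusted p = 3.44e-10), a rise from a low level, and it passed the filter through miR155_KO alone. Cd80, a ligand of CD28, was at 9.05, 10.1, 10.1, 10.9 and 11.2 in PU1_KI and at 16.3, 14.2, 17.5, 16.4 and 15.9 in miR155_KO (0.62 ± 0.07), and Cd86 (0.09, and 0.22 after scaling with adjusted p = 0.0256) gave no call. Havcr1, also called TIM-1, rose by 1.11. The inhibitory Fc receptor Fcgr2b (-0.99), the PD-1 ligands Pdcd1lg2 (-0.74) and Cd274 (-0.38), Cd40 (-0.47) and the class II genes H2-Aa (-0.32) and H2-DMa (-0.36) fell.

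Adhesion genes were more often higher than lower, with 15 of 26 rising and 6 falling and a median of 0.22 as deposited and 0.35 after scaling. The tetraspanins Cd63 (1.78), Cd9 (0.83), Cd151 (0.796), Cd53 (0.64) and Cd81 (0.36) rose, and Cd82 (-0.07) gave no call. The integrin alpha chains Itga6 (1.19) and Itga5 (1.04) and the beta chain Itgb7 (0.602) rose, but the chains of LFA-1, Itgal (-0.55) and Itgb2 (-0.42), and its ligands Icam1 (-0.51) and Icam2 (-0.59) fell. Pecam1, at 6.65, 6.903, 7.18, 7.32 and 7.43 RPKM in PU1_KI and 2.94, 3.45, 3.43, 3.33 and 3.74 in miR155_KO (-0.97 ± 0.06), fell too. Cd63, Itga5 and Itga6 passed the filter through miR155_KO alone, and Cd151 holds an 8mer. Pecam1 is also on the list of stroma and endothelium, whose 12 markers summed to 11 to 12.3 RPKM in PU1_KI and 6.58 to 9.37 in miR155_KO, and the part of such cells was not tested.

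Genes of B cell identity leaned lower. 2 of the 39 tested members rose and 19 fell, with a median of -0.25 as deposited and -0.12 after scaling. Blk, a Src family kinase of B cells, was at 18.8, 18.8, 21.9, 18.7 and 20.6 RPKM in PU1_KI and at 9.89, 9.28, 9.32, 10.5 and 8.09 in miR155_KO (-1.03 ± 0.07, adjusted p = 8.12e-10). Vpreb3 was at 47.1, 52.1, 54.8, 53.7 and 53.1 in PU1_KI and at 26.4, 26.8, 24.5, 25.6 and 29.2 in miR155_KO (-0.96 ± 0.06), and Cd79a, a signalling chain of the B cell receptor, fell from 491 ± 29.9 to 336 ± 7.35. The Fc receptor-like gene Fcrla (-0.76) fell too. The B cell marker Cd79b (-0.12) gave no call, nor did the early factor Ebf1 (-0.26). Tnfrsf13b, the receptor TACI, rose by 0.47.

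Of 31 plasma cell genes 9 rose and 2 fell, with a median of 0.03 as deposited and 0.16 after scaling. Sdc1, the plasma cell surface marker CD138, rose by 0.41, and Fkbp11 (0.303), Creb3l2 (0.304), Ly6c2 (0.898) and Sub1 (0.42) rose. Derl3 (-0.46) and Eaf2 (-0.44) fell, with Eaf2 groups that overlapped through miR155_KO_5. The 5 plasma cell markers, among them Igj, Xbp1, Prdm1 and Sdc1, summed to 178 to 286 RPKM in PU1_KI, 210 to 342 in miR155_KO and 382 to 463 in WT, so the ranges of PU1_KI and miR155_KO overlapped.

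For class switching, 3 of the 31 tested members rose and 14 fell, beside 17.7% and 31.4% of all rows. The median was -0.21 as deposited and -0.08 after scaling. Among those that fell were the uracil glycosylase Ung (-0.54), the nuclease Exo1 (-0.62), the RNA exosome subunit Exosc3 (-0.55) and Rpa2 (-0.48). The mismatch repair genes Pms2 (-0.41) and Msh6 (-0.25) fell too. The end-joining genes Xrcc5 (-0.13), Prkdc (-0.04) and Trp53bp1 (0.01, and 0.14 after scaling with adjusted p = 0.0135) gave no call.

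Of 28 tested genes associated with PU.1 in myeloid and B cells 10 rose and 8 fell, beside 17.7% and 31.4% of all rows. The share that rose was thus above the background and the share that fell near it. Only 24 of the 28 passed the level filter within each group. Cebpb and Tlr4, counted among those that rose, passed through miR155_KO alone and so were bound to differ to some degree. The median was -0.02 as deposited and 0.12 after scaling. Cd300lf, a myeloid inhibitory receptor, was at 9.08, 9.35, 9.13, 9.91 and 10.6 RPKM in PU1_KI and at 22.5, 21.1, 22.3, 22.6 and 21.6 in miR155_KO (1.16 ± 0.06, adjusted p = 1.18e-11). The adaptor Tyrobp (1.48), Lilrb4 and Csf3r rose with it. Cd68 was at 10.2, 10.9, 11.3, 10.5 and 11.6 in PU1_KI and at 4.84, 5.09, 4.796, 5.38 and 5.31 in miR155_KO (-1.03 ± 0.06), and Fcgr2b (-0.99), Ncf4 (-0.68) and Blnk (-0.46) fell. The groups were apart in Cd300lf and Cd68, and WT was at 2.91 ± 0.328 and 6.799 ± 0.475. Of 16 macrophage and monocyte markers C1qa, C1qc and Vcam1 were among those at 0 in all 10 libraries. The list summed to 1.16 to 1.44 RPKM in PU1_KI and 1.69 to 2.04 in miR155_KO, ranges that did not overlap. Among its highest members in miR155_KO, Emr1 and Lyz2 were higher there than in PU1_KI on average and Apoe was slightly lower. All of these means were under 1 RPKM, and the part of such cells was not tested.

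Of 34 genes of B cell receptor signalling 6 rose and 16 fell, beside 17.7% and 31.4% of all rows. Their differences ran from -1.03 to 0.82, with a median of -0.15 as deposited and -0.01 after scaling. The adaptors Sh3bp2 (-0.74), Pik3ap1 (-0.54) and Dok3 (-0.79) and the kinase Lyn (-0.38) fell, and Inpp5d, also on this list, rose. Of 35 Polycomb and chromatin genes 13 rose and 7 fell, beside the same shares of all rows. Their differences ran from -0.39 to 1.37, with a median of -0.01 as deposited and 0.12 after scaling. Beside Jarid2, the demethylase Kdm6b (0.91), the deacetylase Hdac9 (0.75), Pcgf2 (0.77) and Cbx2 (0.69) rose, the catalytic Ezh2 (0.23) rose slightly, and Suz12 (-0.16) and Eed (-0.17) gave no call.

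Transcripts of the mitochondrial genome were higher, with 10 of 13 rising and 1 falling and a median of 0.95 as deposited and 1.09 after scaling. Their share of the RPKM sum was 5.36% to 6.66% in PU1_KI, 8.15% to 9.94% in miR155_KO and 6.16% to 7% in WT. The complex I subunit mt-Nd3 was at 308, 375, 379, 434 and 387 RPKM in PU1_KI and at 1573, 1565, 1808, 1728 and 2115 in miR155_KO (2.22 ± 0.09, adjusted p = 1.59e-12). The rise was uneven along this genome, since mt-Nd2 (1.53), mt-Nd1 (1.09), mt-Atp8 (0.95) and mt-Cytb (0.98) rose, mt-Co3 (0.01, and 0.15 after scaling with adjusted p = 0.0472) and mt-Nd5 (-0.27) gave no call and mt-Co1 (-0.45) fell. These transcripts come from the same long precursors, several overlap, and copies in the nuclear genome may share reads. A larger mitochondrial share lowers the RPKM of every other gene in a library, and what part it had in the nuclear changes was not tested. Without miR155_KO_5, 10 rose and 2 fell.

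**Figure D5:**
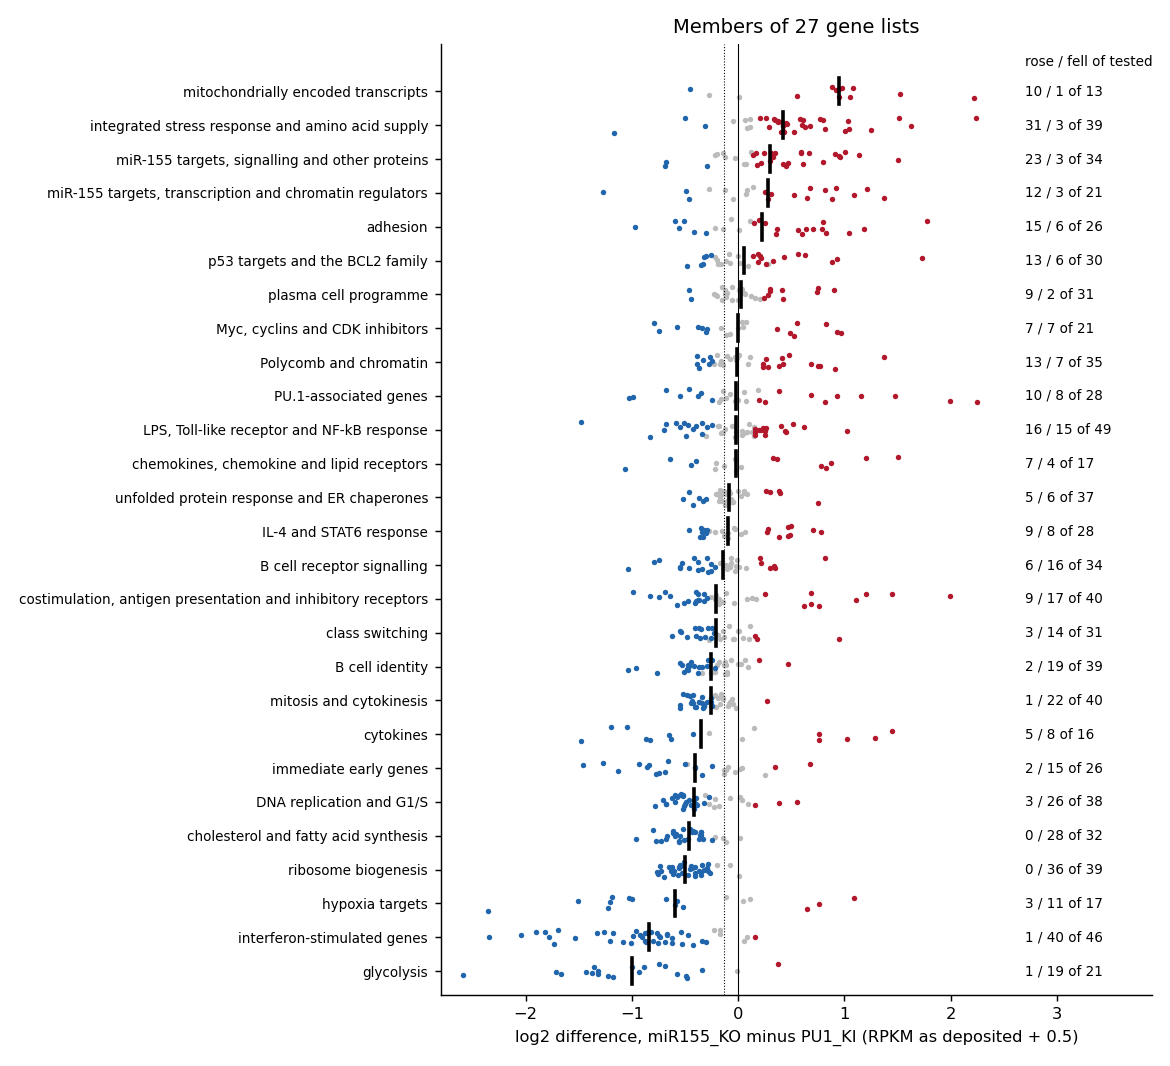
Log2 difference between miR155_KO and PU1_KI, as deposited (horizontal axis), of each tested member of the 27 lists, with red points for members that rose, blue for members that fell and grey for the rest. Thick bars are list medians, from -0.999 for glycolysis to 0.95 for mitochondrially encoded transcripts, and the dotted line marks the median of all rows, -0.13.

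Mrpl39, a protein of the mitochondrial ribosome, was the nearest tested gene to the miR-155 locus and among the 12 largest falls. It was at 7.07, 7.88, 7.94, 8.89 and 8.08 RPKM in PU1_KI and at 1.796, 1.66, 1.15, 1.205 and 1.21 in miR155_KO, with 7.51 ± 0.727 in WT, so PU1_KI and WT overlapped and each miR155_KO library was below all of them (-2.16 ± 0.09, adjusted p = 1.82e-12). On GRCm38.p6 the gene spans chr16:84718281-84735244 and lies 4.12 kb beyond the mature microRNA. The next tested genes moved less, with Atp5j (-0.39) and Gabpa (-0.35), which overlap each other in the table's coordinates, and App (0.62). Within 10 Mb of Mrpl39, 9 of 47 other tested genes rose (19.15%) and 13 fell (27.66%), and within 10 Mb of Sfpi1, on chromosome 2, 11 of 51 rose (21.57%) and 15 fell (29.41%), both near the background of 17.7% and 31.4%. Whether the knockout allele acts on Mrpl39 through the locus itself was not tested.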

How the data were processed

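RNA-seq of splenic B cells was deposited by the authors as 1 table of RPKM values per gene and library. Per the submitters' processing notes, Trim Galore, TopHat and the NCBIM37 build were used. The counter, annotation and strand setting behind the RPKM values, and the treatment of reads shared by similar genes, were not stated in the sources used here. From these values, rows with at least 1 RPKM in at least 4 of the 10 libraries of PU1_KI and miR155_KO were kept, log2(RPKM + 0.5) was taken, and both groups were compared with limma 3.58.1 (R 4.3.3; intensity trend, Benjamini-Hochberg adjustment over all 9578 rows, threshold 0.05), as deposited and after median-of-ratios scaling. RPKM are not counts, so no count test was used. Library depth was estimated from the smallest steps of 250 genes spanning under 2500 bp, of whose values 66.4% to 72.8% came out whole within 0.01 reads. The calls were tested on simulated data. Plots used matplotlib 3.10.9 and tables pandas 2.3.3 with numpy 2.4.6, in Python 3.11.15.

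Genes named are the 12 largest rises and falls among calls with no overlap, up to 4 called members of each list with the smallest adjusted p, the 8 largest 8mer rises and a fixed set of regulators. Other list members, and the neighbours of Mrpl39, were named after their values were seen. Some genes that this rule names are not reported here. The members and lists were chosen with earlier results of these data known. Site classes and list counts are descriptions with no test. The main fit did not pair libraries by replicate number. The index sequences repeat between libraries and no sources used here state which libraries shared a pool, so pool, culture day and genotype cannot be told apart. WT was not tested. Alternatives were other scalings, pseudocounts and filters, a fit of all 14 libraries, a replicate block, no trend and each library left out.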

Additional observations from a re-analysis of the deposited data

Results flagged for a closer look

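Within each group of 5, the highest or the lowest library was compared with its nearest neighbour for every gene named above, and a gap over 0.71 of the group's range was taken as a library that stands apart. This was met 52 times in 574 groups, and chance alone gives about 1 in 20. Of these, 29 were in miR155_KO_5, many of them genes of glycolysis and of the cell cycle in which this library lay nearer to PU1_KI. In miR155_KO_5 the genes Thy1 (77.3 RPKM), Irg1 (6.8 RPKM), Isg15 (46.8 RPKM), Tpi1 (88.3 RPKM), Hk2 (7.27 RPKM), Gpi1 (193 RPKM), Pfkl (13.5 RPKM), Aldoa (274 RPKM), Pgam1 (19.4 RPKM), Pkm2 (289 RPKM), Ldha (151 RPKM), Pycr1 (6.67 RPKM), Nop56 (35.5 RPKM), Polr1b (4.83 RPKM), Tsr1 (11.9 RPKM), Mcm3 (53.1 RPKM), Mcm7 (32.2 RPKM), Mcm5 (38.9 RPKM), Chaf1b (7.24 RPKM), Cdk1 (18.7 RPKM), Aurka (18.6 RPKM), Tnf (2.22 RPKM), Nfkb1 (174 RPKM), Ccl22 (429 RPKM), Tnfsf4 (2.56 RPKM), Itgal (34.2 RPKM), Exo1 (3.21 RPKM), Rpa2 (14.4 RPKM) and Sh3bp2 (13.1 RPKM) stood apart. In PU1_KI_4 the genes Bach1 (1.68 RPKM), Thy1 (43.3 RPKM), Psph (15.2 RPKM), Slc7a3 (9.59 RPKM), Tsr1 (16.8 RPKM), Fbl (9.38 RPKM) and Ung (9.47 RPKM) stood apart. In PU1_KI_1 the genes Fos (46.3 RPKM), Stard4 (25 RPKM), Fosb (7.09 RPKM), H2-Aa (1250.0 RPKM) and Lyn (17.9 RPKM) stood apart. In PU1_KI_5 the genes Slfn8 (10.5 RPKM), Mx1 (8.02 RPKM), Gbp6 (2.92 RPKM) and Eaf2 (4.8 RPKM) stood apart. In miR155_KO_4 the genes Socs1 (7.43 RPKM) and Tap1 (122 RPKM) stood apart. In PU1_KI_2 the gene Egln3 (1.8 RPKM) stood apart. In PU1_KI_3 the gene Cd151 (1.32 RPKM) stood apart. In miR155_KO_1 the gene Ccr6 (2.01 RPKM) stood apart. In miR155_KO_2 the gene Irf9 (10.9 RPKM) stood apart. In miR155_KO_3 the gene Jarid2 (16.2 RPKM) stood apart.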

How the results depend on the processing

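The number of rows called higher depended on the scaling. It was 1697 as deposited, 3010 after median-of-ratios scaling, 2780 with quantile normalization, 2883 with RPKM rescaled to a common sum and 3122 with median-of-ratios scaling and miR155_KO_5 left out. A filter at 5 RPKM gave 854 higher and 581 called and changed at least 1.5-fold, against 946 in the report's setting, with fewer genes tested, and no filter gave 2725 higher. Of the rows called and changed at least 1.5-fold, 413 were higher and 533 lower as deposited, and 584 and 290 after median-of-ratios scaling. The counts of all calls, of calls lower and of both directions changed at least 1.5-fold otherwise stayed within 1.5 times of the report's setting under every alternative run. With a library left out in turn, 1529 to 1758 were higher and 3926 to 4808 lower. The fit with the replicate number as a block called 5917 rows (1645 higher, 4272 lower), against 6111 without it. The correlation of libraries with the same number ran from -0.393 to 0.226, and 0 of 5 PU1_KI libraries correlated best with their own number. No pairing by number was thus seen, though so few libraries cannot exclude it. Whether libraries of the same number were prepared together was not stated.

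Of the 287 genes named in the text, 250 kept their direction and their side of the threshold under every alternative run. The genes that turned sign were those with no call in the report, and the shift between scalings is that of the median of all rows, 0.13. After median-of-ratios scaling the difference had the other sign, with log2 values of 0.0075 for Ets1, 0.0221 for Prdm1, 0.1057 for Pfkm, 0.0021 for Hspa5, 0.0513 for Mki67, 0.0912 for Top2a, 0.1303 for Mdm2, 0.0815 for Rela, 0.0677 for Cd82, 0.0214 for Cd79b, 0.0858 for Prkdc. With quantile normalization the difference had the other sign, with log2 values of 0.0432 for Ets1, 0.0271 for Psmb9, 0.0395 for Pfkm, 0.0271 for Hspa5, 0.1259 for Mki67, 0.1598 for Top2a, 0.1798 for Mdm2, 0.0329 for Bax, 0.1309 for Rela, 0.1341 for Cd82, 0.0508 for Cd79b, 0.0411 for Prkdc, 0.0431 for Suz12, 0.0118 for Eed. With RPKM rescaled to a common sum the difference had the other sign, with log2 values of 0.0118 for Prdm1, 0.0959 for Pfkm, 0.0402 for Mki67, 0.0800 for Top2a, 0.1192 for Mdm2, 0.0705 for Rela, 0.0565 for Cd82, 0.0101 for Cd79b, 0.0756 for Prkdc. With median-of-ratios scaling and miR155_KO_5 left out (chosen after seeing the data) the difference had the other sign, with log2 values of 0.0139 for Ets1, 0.0987 for Pfkm, 0.0698 for Mki67, 0.1036 for Top2a, 0.0321 for Cdkn1b, 0.1107 for Mdm2, 0.0682 for Rela, 0.0872 for Cd82, 0.0785 for Cd79b, 0.1277 for Prkdc. With each library left out in turn, the sign turned for some libraries, with ranges of -0.0231 to 0.0733 for Xbp1, -0.0496 to 0.0185 for Pfkm, -0.0402 to 0.0625 for Npm1, -0.0475 to 0.0271 for Mdm2, -0.0330 to 0.0676 for Cxcr5, -0.0831 to 0.0155 for Prkdc, -0.0112 to 0.0358 for Trp53bp1, -0.0520 to 0.0446 for mt-Co3. Named genes that rose or fell in the report and lost the call elsewhere were Fkbp11, Msh6, Nfkb1, Pax5, Socs1, Tlr4 and Xaf1. Of the genes with no call, Xbp1, Mcm2, Mdm2, Rel, Cxcr5, Cd86, Trp53bp1 and mt-Co3 passed after median-of-ratios scaling but not as deposited (all higher). All of these but mt-Co3 also passed with quantile normalization and with RPKM rescaled to a common sum. Lck, Psmb9, Tap1, Ncl, Cdkn1b, Ebf1, Suz12, Eed and mt-Nd5 passed as deposited but not after median-of-ratios scaling (all lower). Rela and Cd82 passed as higher with quantile normalization, and Hspa5, Bax, Cd79b and Xrcc5 as lower with some single library left out. With a pseudocount of 0.1 the low genes Anpep (3.18), Ak4 (-2.92), Tnfsf4 (2.13), Icosl (1.84) and Cd63 (2.43) differed by over 1.5 times more. Depth limits genes near 1 RPKM. The deposited values are RPKM and not counts, so no interval from counting is given.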
